A study of Mus musculus with 6 samples.

Results

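The clustered protocadherins are cell-surface adhesion proteins of the cadherin superfamily that are encoded in 3 neighbouring gene clusters, alpha, beta and gamma, on mouse chromosome 18. They were described here in intestinal adenomas of 2 mouse models with a truncated Apc gene. A gene was counted as a member when its GENCODE M21 symbol, found through its Ensembl identifier, named it as a Pcdha, Pcdhb, Pcdhga, Pcdhgb or Pcdhgc gene of chromosome 18. This rule took 58 of the 34866 genes in the deposited table, 14 of the alpha, 22 of the beta and 22 of the gamma cluster. The family was taken up because Pcdhb9 differed between the models, so the members were selected on values from the same comparison that is described below. Their fold changes are therefore given as a description, with no test.

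Each gene of the alpha and gamma clusters has its own large first exon with its own promoter, and this variable exon is spliced to constant exons that all genes of the cluster share. Beta genes have no such constant exons, and most consist of a single coding exon. In neurons, each cell uses a small and partly random choice of these promoters, under control of the insulator protein CTCF, cohesin and DNA methylation, while the C-type genes at the ends of the alpha and gamma clusters are used in a more regular way. The proteins bind only to copies of themselves on a facing cell, which lets a neuron tell its own branches from those of its neighbours. Their expression outside the nervous system is less well described.

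The adenomas came from C57BL/6J mice of 100 to 120 days, and 3 libraries were made from Apc1322T/+ mice and 3 from ApcMin/+ mice. Both genotypes carry 1 truncating Apc allele in the germline, and adenomas of ApcMin mice are known to arise by loss of heterozygosity, when an epithelial cell loses its wild-type Apc. The Apc alleles left in the epithelium and in the other cells of these tumours were not measured here, and no library of normal tissue entered the comparison. The study's methods state that a sample usually combined several RNA extractions of excised tumours from a single mouse, so that an adenoma library holds epithelium, stroma, vessels and nerves in unknown shares. Reads were assigned to transcripts with Salmon, and the values are estimated counts summed per gene.

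The libraries held between 23132461 and 33518324 estimated counts. Levels are given in CPM, the counts of a gene scaled to a common library size with TMM (trimmed mean of M values) factors. On this scale 3 counts in 1 library are worth between 0.0838 and 0.143 CPM, a limit that covers counting error only. The tissue label was checked against 12 epithelial adenoma markers, among them Epcam, Cdh1, Lgr5 and Axin2, and none was below 1146 counts in any library. Every fibroblast, smooth muscle and endothelial marker examined was also detected in all 6 libraries. In such mixed tissue, fewer cells of a type and less RNA per cell cannot be told apart, for the protocadherins as for any other gene.

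On GRCm38, the alpha cluster spans chr18:36930184-37187661, the beta cluster chr18:37264938-37524479 and the gamma cluster chr18:37661793-37841873. The clusters begin 2.61, 2.94 and 3.34 Mb beyond the end of Apc (chr18:34220924-34322552), which is on the same chromosome. Of the 22 beta genes, 18 are annotated with 1 exon. Within the beta cluster, the widest space between neighbouring genes, 42.2 kb, lies between Pcdhb8 and Pcdhb9. Pcdhb9 itself (ENSMUSG00000051242) occupies chr18:37400855-37403909.

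Because members of a cluster share exons or closely similar sequence, the share of each member's transcripts that belongs to it alone was computed. For every member, the 31-base words of its annotated transcripts were compared with those of all other genes. In the alpha cluster, between 9.32% and 54.5% of a gene's words were found in no other gene (median 36.5%), and in the gamma cluster between 32.5% and 67.0% (median 53.8%). In the beta cluster the range was 77.5% to 100% (median 88.2%). Beta genes were thus the members that short reads could best assign, and alpha genes the least.

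**Figure D1:**
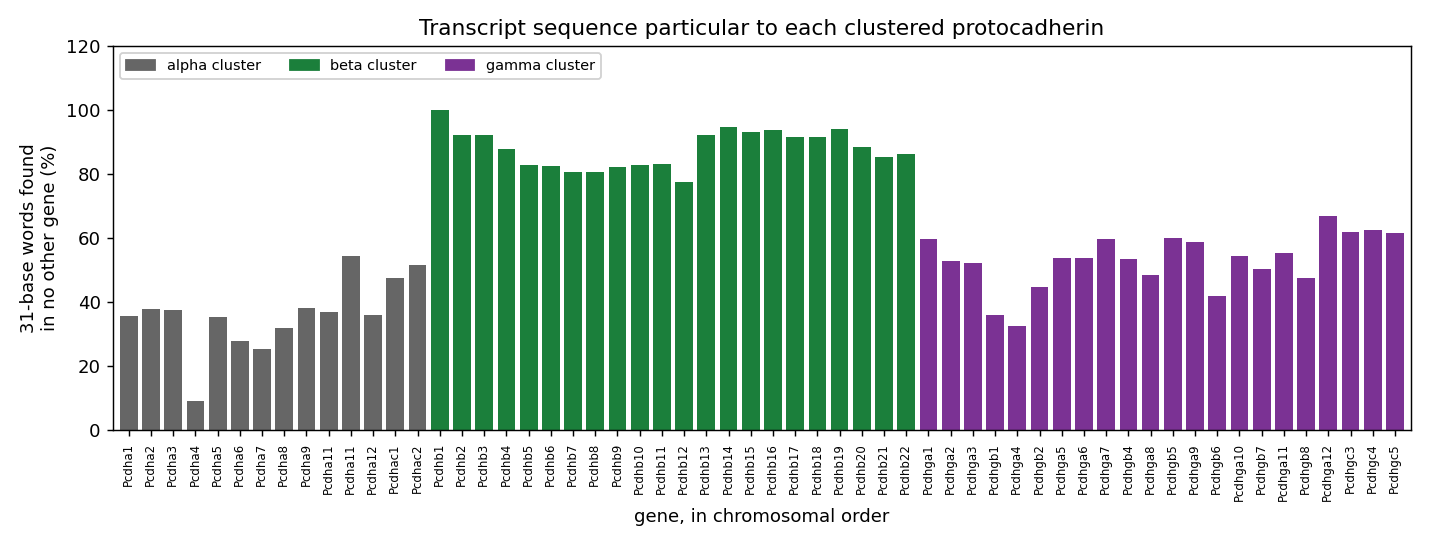
Share of the 31-base words of each of the 58 genes that occur in no other annotated gene, in percent, with genes in chromosomal order and bars coloured by cluster. Beta genes stand between 77.5% and 100%, above every alpha and gamma gene, and the 2 Ensembl genes that carry the symbol Pcdha11 have a bar each.

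The estimated counts carried the trace of this sharing. Of the non-zero values, 90.3% of those of beta genes, 95.4% of those of gamma genes and all 22 of those of alpha genes differed from a whole number by more than 1e-06, against 54.4% over all genes. A non-whole value arises where Salmon divides a read between several transcripts. One annotated gene, Gm37013 (chr18:36969916-37833296), runs across all 3 clusters, and it held 29, 30 and 4 counts in the Apc1322T libraries and 21, 31 and 26 in the ApcMin libraries. The counts of single alpha and gamma genes are for these reasons uncertain, whereas the sum of a cluster does not depend on how reads were divided within it. It can still depend on reads divided with genes outside the family. Such genes held up to 41.1% of the words of an alpha gene and up to 18.9% of those of a gamma gene.

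The 3 clusters differed widely in level. The gamma cluster held between 74.5% and 85.3% of all counts of the family in a library, and the beta cluster between 14.2% and 24.6%. The alpha cluster held between 0.286% and 0.944%. The adenomas therefore contained mainly gamma transcripts, a smaller amount of beta transcripts and barely any alpha transcripts.

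The alpha genes code for the members first known as cadherin-related neuronal receptors. Summed over 14 genes, the cluster held 24, 10 and 15 counts in Apc1322T replicates 1, 2 and 3 and 16, 18 and 40 counts in ApcMin replicates 1, 2 and 3. In CPM these sums were 0.880, 0.475 and 0.657 in Apc1322T and 0.447, 0.708 and 1.26 in ApcMin, so the groups overlapped. Pcdha7 and Pcdhac1 were at 0 in every library, and no other alpha gene exceeded 13 counts in any library. The alpha gene with the highest mean level outside the C-type members was Pcdha5, with 3, 0 and 2 counts in Apc1322T and 0, 9 and 7 in ApcMin. No alpha gene passed the filter on low counts, and no difference between the genotypes was detectable for this cluster at this depth.

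The gamma cluster was dominated by its C-type genes Pcdhgc3 and Pcdhgc4. The first is the gamma member known for expression in many tissues, and the second is required for the survival of inhibitory neurons in mice. Pcdhgc4, the C-type member with the highest mean, measured 50.1, 39.9 and 36.2 CPM in Apc1322T and 52.8, 38.7 and 39.0 CPM in ApcMin. Pcdhgc3 measured 55.5, 29.9 and 40.0 CPM in Apc1322T and 45.2, 39.7 and 37.7 CPM in ApcMin. For both genes the libraries of the 2 genotypes overlapped and the first replicate of each genotype was the highest. The log2 fold change of ApcMin over Apc1322T was 0.048 (SE 0.17) for Pcdhgc4 and -0.033 (SE 0.22) for Pcdhgc3, which was named after its values were seen.

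Together, Pcdhgc3 and Pcdhgc4 accounted for between 76.8% and 78.6% of the counts of the gamma cluster. This share moved little between libraries, while the sum of the cluster itself ranged from 89.2 to 136 CPM. Per kilobase of transcript, their mean level over the 6 libraries was 8.82 and 8.52 CPM, and these neighbours in the order differed by less than their spread. Pcdhgb6 came next among all 58 genes with 1.33 CPM per kilobase, followed by Pcdhb9 with 0.875. This order pools the genotypes. Per kilobase, Pcdhb9 measured 0.191 CPM in Apc1322T, where Pcdhgb6 measured 1.47, and 1.56 CPM in ApcMin, where Pcdhgb6 measured 1.18. The third gamma C-type gene, Pcdhgc5, lay far below the other 2, with mean levels of 1.95 CPM in Apc1322T and 2.20 CPM in ApcMin.

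**Figure D2:**
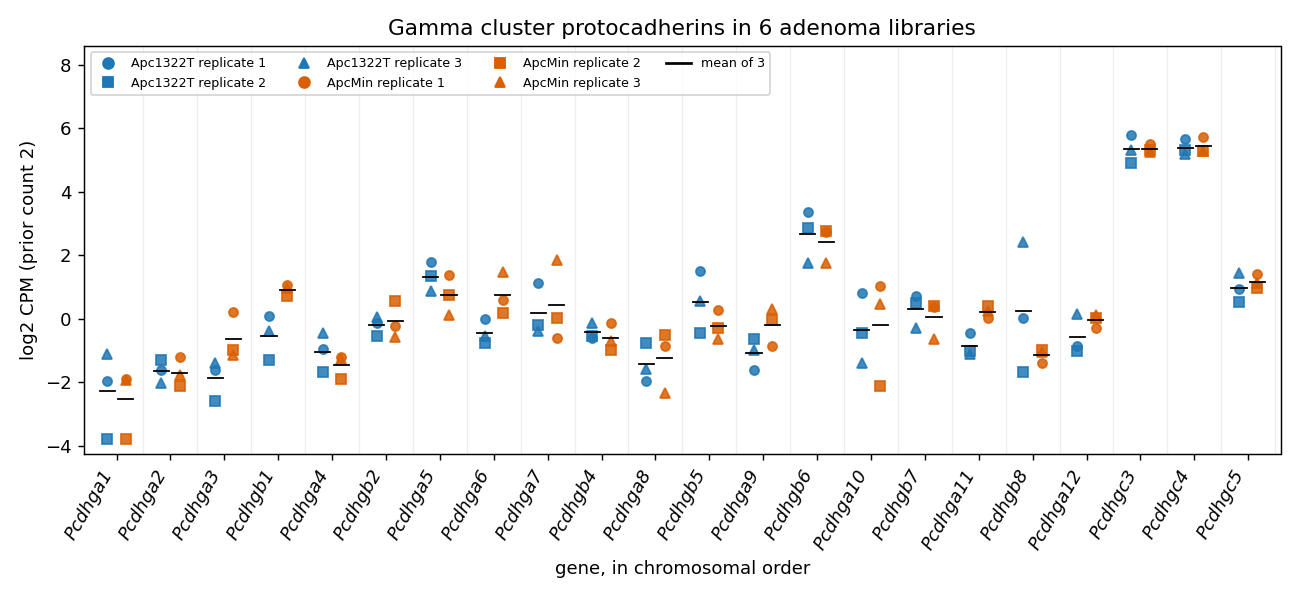
Level of each of the 22 gamma cluster genes in the 3 Apc1322T libraries (blue) and the 3 ApcMin libraries (orange), as log2 CPM with a prior count of 2, in chromosomal order, with the mean of 3 libraries as a line. Pcdhgc3 and Pcdhgc4 stand above all other genes in every library, and a single Apc1322T library stands apart for Pcdhgb8.

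Among the gamma A and gamma B genes, which alternate along the cluster, Pcdhgb6 had the highest level. It measured 10.2, 7.13 and 3.33 CPM in Apc1322T and 6.54, 6.80 and 3.29 CPM in ApcMin, a log2 fold change of -0.32 (SE 0.46). Its libraries overlapped, and within each genotype the third replicate was the lowest. Pcdhga5, the highest of the gamma A genes, measured 3.37, 2.47 and 1.75 CPM in Apc1322T and 2.54, 1.61 and 1.01 CPM in ApcMin, a log2 fold change of -0.55 (SE 0.42). These libraries overlapped as well.

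The lowest log2 fold changes of the family included 2 gamma B genes. Pcdhgb8, which is annotated as a polymorphic pseudogene, measured 0.954, 0.238 and 5.25 CPM in Apc1322T and 0.307, 0.432 and 0.411 CPM in ApcMin. Its log2 fold change of -2.48 (SE 1.05) rested on Apc1322T replicate 3, which alone held 120 of its counts, and it was -0.66 without that library. Pcdhgb5 measured 2.75, 0.665 and 1.40 CPM in Apc1322T and 1.15, 0.747 and 0.569 CPM in ApcMin, a log2 fold change of -0.97 (SE 0.57). For both genes the libraries of the genotypes overlapped.

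The highest fold changes of the gamma cluster belonged to neighbours near its start. Pcdhga3 measured 0.257, 0.0950 and 0.306 CPM in Apc1322T and 1.09, 0.432 and 0.379 CPM in ApcMin, a log2 fold change of 1.51 (SE 0.64). Pcdhgb1, the next gene along the cluster, measured 0.990, 0.333 and 0.701 CPM in Apc1322T and 2.01, 1.57 and 1.90 CPM in ApcMin, a log2 fold change of 1.42 (SE 0.43). For both genes every ApcMin library lay above every Apc1322T library, by a narrow margin for Pcdhga3, which had only 2 counts in Apc1322T replicate 2. Only 52.1% of the words of Pcdhga3 and 36.1% of those of Pcdhgb1 were found in no other gene.

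The gamma A genes were more often above 0 on the log2 scale than the gamma B genes. Of the 10 gamma A genes with enough counts to be tested, 8 had a higher level in ApcMin, and of the 7 gamma B genes 2 had. Of all genes tested, 52.4% had. For 3 of these gamma A genes and 4 of the gamma B genes the fold change was smaller than its own standard error. The summed gamma A level was 10.8, 7.08 and 7.05 CPM in Apc1322T and 11.2, 8.30 and 13.1 CPM in ApcMin, and the summed gamma B level was 17.9, 10.9 and 13.2 CPM against 12.8, 12.7 and 7.87 CPM. Both sums overlapped between the genotypes, and the difference between the A and B types was not tested. Other tested gamma A genes, not yet named, had mean levels between 0.302 and 1.73 CPM in ApcMin and log2 fold changes between -0.54 and 1.33.

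The sum of the gamma cluster was 136, 89.2 and 99.1 CPM in Apc1322T replicates 1, 2 and 3 and 125, 101 and 99.8 CPM in ApcMin replicates 1, 2 and 3. The means were 108 ± 24.7 CPM (SD, n = 3) in Apc1322T and 109 ± 13.99 CPM (SD, n = 3) in ApcMin. The difference on the log2 scale, 0.022, was smaller than the spread between the libraries of either genotype. The gamma sum was highest in the first replicate of each genotype (136 and 125 CPM). The fibroblast marker sum (1750 and 3579 CPM) and the endothelial marker sum (209 and 274 CPM) were highest in the same 2 libraries. Between these 2 libraries, both marker sums were higher in ApcMin and the gamma sum was higher in Apc1322T. The part of either cell type in the gamma sum was not tested.

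The beta cluster differed from the others in this respect. Its 22 genes summed to 22.6, 20.3 and 20.8 CPM in Apc1322T replicates 1, 2 and 3 and to 31.03, 29.96 and 32.9 CPM in ApcMin replicates 1, 2 and 3. The means were 21.3 ± 1.19 CPM (SD, n = 3) and 31.3 ± 1.51 CPM (SD, n = 3), and every ApcMin library lay above every Apc1322T library. The beta sum was 1.47-fold higher in ApcMin, a log2 difference of 0.56.

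**Figure D3:**
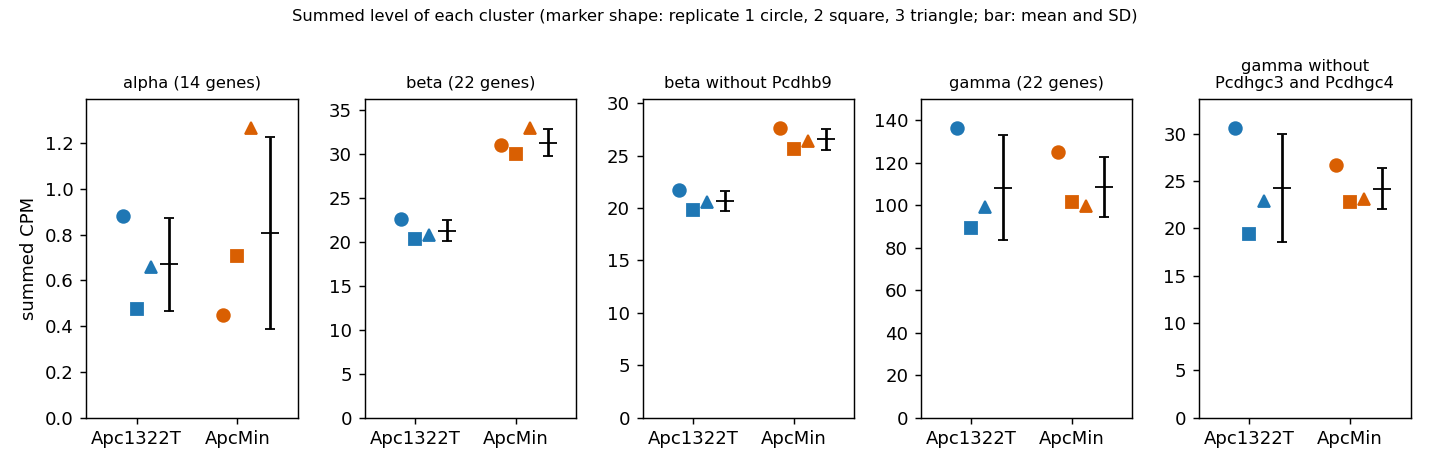
Summed level of the alpha, beta and gamma cluster in each library in CPM, with the beta sum also shown without Pcdhb9 and the gamma sum without Pcdhgc3 and Pcdhgc4. Points are libraries and bars give the mean and SD of 3 libraries; the genotypes do not overlap for the 2 beta sums and overlap for the alpha and gamma sums.

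Pcdhb9 stood out in this cluster. It held 25, 12 and 6 counts in Apc1322T replicates 1, 2 and 3 and 122, 111 and 206 counts in ApcMin replicates 1, 2 and 3. In CPM this was 0.917, 0.570 and 0.263 in Apc1322T and 3.41, 4.36 and 6.51 in ApcMin. Even the lowest ApcMin library was thus above the highest Apc1322T library and the third replicate was the highest of ApcMin but the lowest of Apc1322T. The fold change was 8.02, or 3.00 on the log2 scale (SE 0.49), and leaving out each library in turn gave log2 values between 2.66 and 3.51.

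The place of Pcdhb9 within the cluster changed with the genotype. It made up 4.06%, 2.80% and 1.26% of the beta counts in the Apc1322T libraries and 10.98%, 14.6% and 19.8% in the ApcMin libraries. By CPM per kilobase it ranked 7, 9 and 16 of 22 in Apc1322T and was the highest beta gene in all 3 ApcMin libraries. By CPM not scaled for length it ranked 7, 9 and 17 in Apc1322T and 4, 1 and 1 in ApcMin. The member closest to it in sequence is Pcdhb7, which shares 12.6% of the words of Pcdhb9, and it measured 2.20, 2.85 and 1.58 CPM in Apc1322T and 2.60, 3.93 and 2.34 CPM in ApcMin, with overlapping libraries. Of the words of Pcdhb9, 82.2% were found in no other gene.

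**Figure D4:**
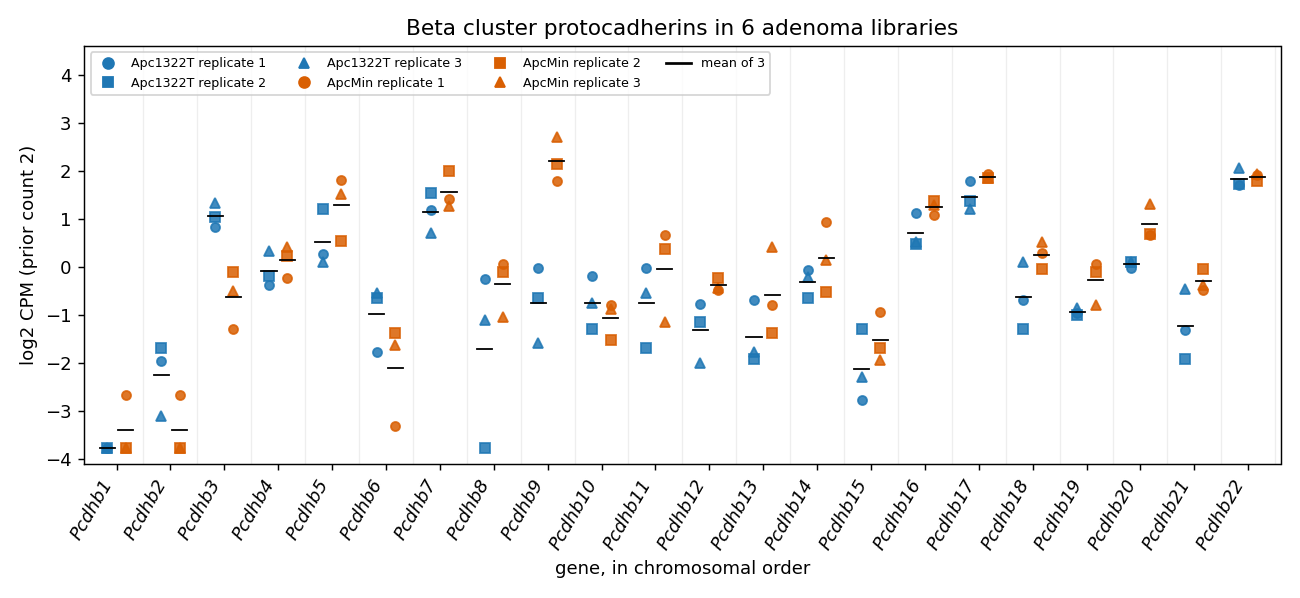
Level of each of the 22 beta cluster genes in the 3 Apc1322T libraries (blue) and the 3 ApcMin libraries (orange), as log2 CPM with a prior count of 2, in chromosomal order, with the mean of 3 libraries as a line. The genotypes are farthest apart for Pcdhb9, and Pcdhb3 is the only tested beta gene whose ApcMin libraries all lie below the Apc1322T libraries.

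Pcdhb3 showed the opposite pattern. It held 47, 42 and 56 counts in Apc1322T and 12, 22 and 20 counts in ApcMin, or 1.72, 2.00 and 2.45 CPM against 0.335, 0.865 and 0.632 CPM. Every ApcMin library lay below every Apc1322T library. The log2 fold change was -1.76 (SE 0.41), between -2.08 and -1.46 with each library left out in turn. Its share of the beta counts was between 7.63% and 11.8% in Apc1322T and between 1.08% and 2.89% in ApcMin.

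The most abundant beta gene on average before scaling for length, Pcdhb22, sits at the far end of the cluster. It measured 3.23, 3.23 and 4.12 CPM in Apc1322T and 3.71, 3.42 and 3.76 CPM in ApcMin, with a log2 fold change of 0.044 (SE 0.21). These libraries overlapped.

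Pcdhb9 accounted for 41.6% of the difference in the beta sum between the genotype means, 4.18 of 10.1 CPM. Without it, the other 21 genes summed to between 19.8 and 21.7 CPM in Apc1322T and between 25.6 and 27.6 CPM in ApcMin, a 1.28-fold difference (0.36 on the log2 scale) with no overlap. Without Pcdhb3 as well, the log2 difference was 0.48. These 2 sums were computed after the values of the members had been seen. The remaining 15 tested beta genes had mean levels between 0.320 and 2.72 CPM in Apc1322T and between 0.417 and 3.64 CPM in ApcMin, and 14 of them had a higher level in ApcMin, with log2 fold changes between -0.41 and 1.09. Beta genes not tested numbered 4 and did not exceed 16 counts in any library. With Apc1322T first, Pcdhb2 (0.155 and 0.0279 CPM) and Pcdhb6 (0.468 and 0.198 CPM) had lower means in ApcMin. Pcdhb1 (0 and 0.0279 CPM) and Pcdhb15 (0.179 and 0.291 CPM) had higher ones. Some tested genes, among them Pcdhb8, Pcdhb9, Pcdhb12 and Pcdhb21, had fewer than 10 counts in an Apc1322T library and passed the filter through ApcMin. The shares and medians of tested genes carry this selection.

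Over the whole family, 38 of the 58 members passed the filter on low counts, 18 beta and 20 gamma genes, and 37 of the 58 had more than 3 counts in every library. Of these 38 members, 28 had a higher level in ApcMin, 16 of the 18 beta genes among them, where 52.4% of all tested genes did. The median log2 fold change of the 38 was 0.44, that of the 18 beta genes 0.79 and that of the 20 gamma genes 0.19, beside 0.017 for all 16536 genes tested. When libraries were scaled by their totals alone, the median of all genes moved to 0.17, and 30 of the 38 members and 73.3% of all genes were higher in ApcMin. For 14 of the 38 members the fold change was smaller than its own standard error. As the family was chosen from this comparison, and some members passed the filter through their ApcMin counts, nothing further is read from these shares.

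**Figure D5:**
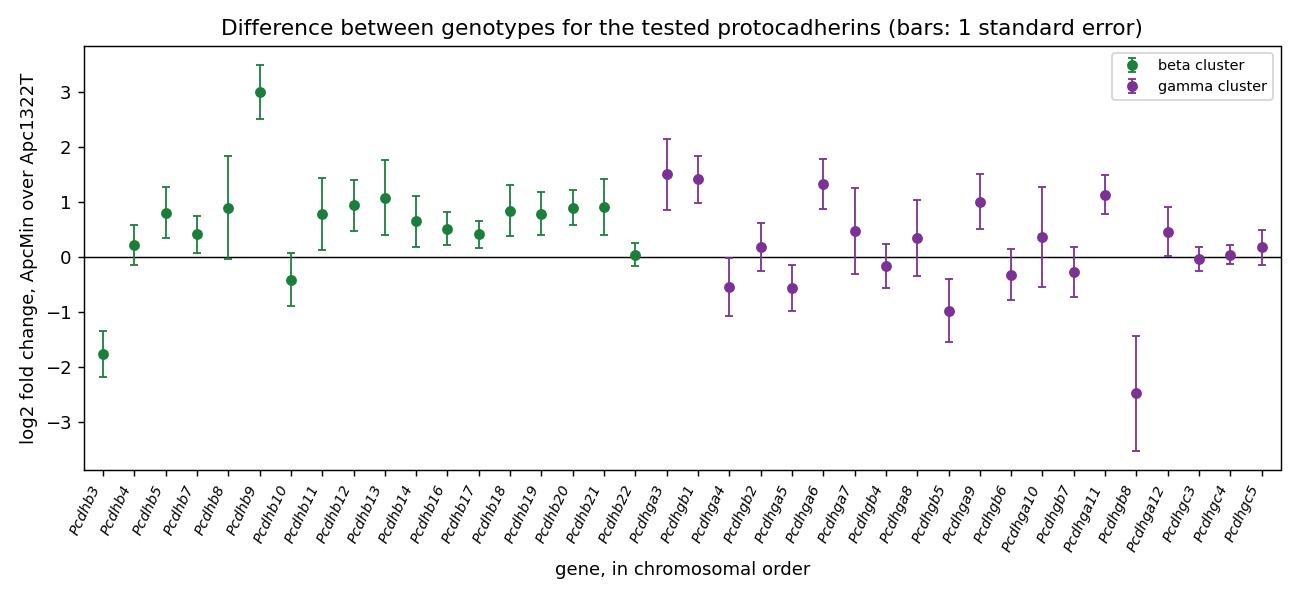
Log2 fold change of ApcMin over Apc1322T for the 38 clustered protocadherins with enough counts to be tested, in chromosomal order and coloured by cluster, with bars of 1 standard error. Most beta genes lie above 0, Pcdhb9 lies highest at 3.00, and Pcdhgb8 and Pcdhb3 lie lowest.

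No member passed the threshold of the study, an adjusted p under 0.01, in edgeR's quasi-likelihood test, and 0% of all 16536 genes did. At an unadjusted p under 0.05, 5 members were higher in ApcMin and 1 lower, beside 7.49% and 7.6% of all genes tested. DESeq2's Wald test placed 1 of the 40 members with an adjusted p, Pcdhb9, under 0.01, where it placed 1.12% of all genes. The libraries did not overlap for 9 members higher in ApcMin (Pcdhb9, Pcdhb12, Pcdhb17, Pcdhb19, Pcdhb20, Pcdhga3, Pcdhgb1, Pcdhga6 and Pcdhga11) and for 1 lower (Pcdhb3). Over all genes tested, 11% were higher and 9.96% lower without overlap. The rule drew on this same contrast, and the counts are given as a description alone.

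Levels of markers of non-epithelial cells were also compared between the genotypes. All 8 tested markers of enteric neurons, out of 12, had a higher level in ApcMin, with a median log2 fold change of 0.84, and the list summed to between 13.0 and 22.2 CPM in Apc1322T and between 24.7 and 33.5 CPM in ApcMin. None of these 12 was at 0 in any library. All 8 smooth muscle markers were higher as well (median 0.61), with sums of 135 to 271 CPM against 289 to 427 CPM. For both lists, as for the beta cluster, the sums of the 2 genotypes did not overlap.

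The other lists of non-epithelial cells gave a less even picture. Of 10 fibroblast markers 9 were higher in ApcMin (median 0.95), and their sums of 817 to 1750 CPM and 1198 to 3579 CPM overlapped. The 8 endothelial markers were all higher (median 0.36), with overlapping sums of 135 to 209 CPM and 187 to 274 CPM. Enteric glia markers, of which 4 of 8 were tested, had 1 higher and 3 lower in ApcMin, with overlapping sums of 242 to 327 CPM and 161 to 255 CPM. In ApcMin replicate 1 a single gene held 7614 of the 7785 counts of this list, so the glia sum there was almost that of 1 gene. Of the 7 tested enteroendocrine markers, which mark hormone cells of the epithelium, 4 were higher and 3 lower, with overlapping sums.

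Of the 12 epithelial markers, 11 had a lower level in ApcMin (median -0.35), with sums of 14754 to 17058 CPM in Apc1322T and 12010 to 13801 CPM in ApcMin. In edgeR's quasi-likelihood test, 0 genes of any of these 7 lists reached an adjusted p under 0.01. At an unadjusted p under 0.05 there were 6 epithelial, 2 neuronal, 4 fibroblast, 2 smooth muscle, 1 endothelial, 2 enteroendocrine and 0 glial markers. Of all genes tested, 7.49% were higher and 7.6% lower in ApcMin at that p. DESeq2 called 1 fibroblast marker, Pdgfra, and 1 endothelial marker, Cdh5, both higher in ApcMin, where it called 1.12% of all genes. The largest log2 fold changes in each list were those of Vil1 (-0.60) for the epithelium, Nos1 (1.15) for neurons, Foxd3 (-0.93) for glia, Lum (1.57) for fibroblasts, Myh11 (0.88) for smooth muscle, Cdh5 (1.38) for endothelium and Neurog3 (1.52) for enteroendocrine cells. The part of these tissue markers in the beta cluster result was not tested. The medians of the stromal and neuronal lists ran from -0.25 for glia to 0.95 for fibroblasts. This range holds the median of the tested beta genes, 0.79, but also those of the gamma genes, 0.19, and of all genes tested, 0.017. Pcdhb9, at 3.00, was chosen for its difference in this contrast, and its value was not tested against the markers.

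A list of 22 factors of promoter choice and chromatin, several of which act on these clusters in neurons, was also compared. All were tested, 15 had a higher and 7 a lower level in ApcMin, and the median log2 fold change was 0.081. Ctcf, which encodes the insulator protein that binds the promoters, measured 84.4, 81.0 and 81.2 CPM in Apc1322T and 83.1, 83.3 and 85.2 CPM in ApcMin (log2 fold change 0.029, SE 0.070). The libraries of the cohesin subunit gene Rad21 overlapped too (-0.088, SE 0.082), as did those of Smchd1, a chromatin protein known to hold the clusters silent (0.18, SE 0.10). The largest value was that of Dnmt3b, a de novo DNA methyltransferase that marks these promoters in the embryo. It measured 6.86, 4.61 and 5.52 CPM in Apc1322T and 8.21, 7.23 and 11.03 CPM in ApcMin, with no overlap and a log2 fold change of 0.64 (SE 0.24). The libraries also did not overlap, with ApcMin higher, for the DNA demethylating enzyme gene Tet2 (0.36, SE 0.12), the histone methyltransferase gene Setdb1 (0.22, SE 0.078) and the cohesin subunit gene Smc3 (0.11, SE 0.078). With Dnmt3b these made 4 of the 22, or 18.2%, higher without overlap and 0 lower, beside 11% and 9.96% of all genes tested. By edgeR, 0 of the 22 had an adjusted p under 0.01, and DESeq2 called 0. At an unadjusted p under 0.05 edgeR had 3 higher and 0 lower, beside 7.49% and 7.6% of all genes tested.

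Proteins that act with the protocadherins at the membrane were examined as a list of 20, among them the WAVE complex, focal adhesion kinases and the secretases that cleave them. Of these, 6 had a higher and 14 a lower level in ApcMin, and the median was -0.11. Without overlap of the libraries, 2 were higher and 5 lower (10% and 25%), beside 11% and 9.96% of all genes tested. The list summed to between 3618 and 3692 CPM in Apc1322T and between 3272 and 3363 CPM in ApcMin. The largest difference was that of Wasf1, a WAVE complex subunit, with 1.87, 2.33 and 1.62 CPM in Apc1322T and 2.35, 5.66 and 3.92 CPM in ApcMin (1.03, SE 0.37). Its libraries did not overlap, although ApcMin replicate 1 lay only just above Apc1322T replicate 2. None of the 20 reached an adjusted p under 0.01 by edgeR or by DESeq2, and 4 had an unadjusted p under 0.05 by edgeR. Of these 4, 1 was higher and 3 were lower in ApcMin (5% and 15% of the list), beside 7.49% and 7.6% of all genes tested.

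Protocadherins and related cadherins outside the 3 clusters were compared as a list of 21 genes, of which 13 were tested. Here 9 had a higher and 4 a lower level in ApcMin, with a median of 0.37. Without overlap of the libraries, 3 were higher and 2 lower (23.1% and 15.4%), beside 11% and 9.96% of all genes tested. The list summed to between 1697 and 2883 CPM in Apc1322T and between 1454 and 1892 CPM in ApcMin, with overlap. The largest difference was that of Pcdh20, a delta-type protocadherin, with 0.624, 0.380 and 0.438 CPM in Apc1322T and 0.698, 1.18 and 1.201 CPM in ApcMin (1.07, SE 0.40), with no overlap. By edgeR, 0 of the 13 had an adjusted p under 0.01 and 5 an unadjusted p under 0.05, and DESeq2 called 0. Of these 5, 2 were higher and 3 lower in ApcMin (15.4% and 23.1% of the 13), beside 7.49% and 7.6% of all genes tested.

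The genes beside and between the clusters were examined to see whether the region as a whole differed. Of 12 such genes 11 were tested, 5 higher and 6 lower in ApcMin, with a median of -0.039 and with values from -0.27 to 0.42. Taf7, a single-exon gene of the general transcription machinery that lies between the beta and gamma clusters, measured 5.39, 7.94 and 7.71 CPM in Apc1322T and 5.42, 6.49 and 5.56 CPM in ApcMin (-0.27, SE 0.21). Its libraries overlapped, as did those of Arap3, the gene with the largest value (0.42, SE 0.22). By edgeR, 0 of the 11 had an adjusted p under 0.01, and DESeq2 called 0. At an unadjusted p under 0.05 edgeR had 1 higher and 0 lower, beside 7.49% and 7.6% of all genes tested.

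Apc itself, some megabases away, measured 85.4, 85.2 and 88.4 CPM in Apc1322T and 113, 112 and 125 CPM in ApcMin. All ApcMin libraries lay above all Apc1322T libraries, and the log2 fold change was 0.43 (SE 0.081). The adjusted p of Apc was 0.257 in edgeR's quasi-likelihood test. In DESeq2's Wald test it was 0.0093, under the threshold of 0.01, where DESeq2 placed 1.12% of all genes. The values sum all Apc alleles present in the tissue, which gene-level counts do not separate.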

How the data were processed

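RNA-seq libraries of 3 Apc1322T and 3 ApcMin adenoma samples were analysed. The authors quantified reads against the mouse transcriptome with Salmon, imported them with tximport and tested them with DESeq2, and deposited estimated counts per gene that are not scaled to library size or gene length. The submitters' processing notes name the build GRCm38.p6, and the transcript release is not given in the sources used here. Every library came from its column name, which matches the sample's title.

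Estimated counts were rounded to integers before fitting. Symbols and positions were taken from GENCODE M21 on GRCm38 through the Ensembl identifier for 34582 of 34866 genes. Genes were kept with filterByExpr (minimum count 10, minimum total count 15) and scaled by TMM, and genotypes were compared over 16536 genes with edgeR 4.0.16 in R 4.3.3 (quasi-likelihood test with robust estimation), two-sided, with Benjamini-Hochberg adjustment and the study's threshold of 0.01. A standard error is the log2 fold change divided by the square root of the F value. A prior count of 2 was used for log2 CPM. DESeq2 1.42.0 was the alternative test. Summed levels are sums of CPM, compared as means of their log2 values and without a test. Scripts were tested on simulated counts with known changes, where DESeq2 made more false calls than edgeR at an adjusted p under 0.01.

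Total counts of 23132461 to 33518324 limit the precision of members with few counts. Every pair of libraries differed by a chi-square of 22.8 per gene or more. Replicates were taken to be different mice, since the study's methods state that a sample usually came from a single mouse. The p-values set the genotype difference against a spread estimated from these samples. The replicate numbers recur in both genotypes, but same-numbered libraries come from different mice, and the correlations of their deviations (-0.014, 0.16 and -0.29) did not pair them.

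Per-library values were given for Pcdhb9, for the member with the highest mean CPM of the alpha, beta, gamma A, gamma B and C-type groups, and for the 3 highest and 3 lowest log2 fold changes. Of the other lists, genes called at an adjusted p under 0.01 or else the one with the largest absolute log2 fold change were named, with Ctcf, Rad21, Smchd1, Taf7 and Apc. Pcdhgc3, Pcdhgc5, Pcdhb7, Gm37013, Pdgfra, Tet2, Setdb1, Smc3 and the members listed by overlap alone were named after their values were seen. So were Pcdhb1, Pcdhb2, Pcdhb6, Pcdhb8, Pcdhb15 and Pcdhb21. The members and all gene lists were chosen with earlier results of these data known. Alternatives were other normalisations, tests and filters, a threshold of 0.05, a replicate block, and leaving out each library.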

Additional observations from a re-analysis of the deposited data

How the results depend on the processing

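Each result was recomputed under the alternatives, 366 values in all. Of these, 357 stayed within the limits set, which were 1.5 times the count or 1 SD between replicates. This total is not a measure of robustness, since many of the values could hardly move. In each setting edgeR called at most 1 gene of any kind at an adjusted p under 0.01, so its counts of called genes stayed at 0. For the summed levels, the replicate block gives the same difference by its arithmetic. With DESeq2's Wald test, 1 member, 1 fibroblast marker and 1 endothelial marker passed an adjusted p of 0.01, where edgeR passed 0. With a filter of 30 counts in 3 libraries, 12 members remained higher in ApcMin, since only 18 were then tested. The log2 difference of the beta sum was 0.72 when scaled by the library total alone, 0.36 without Pcdhb9, and 0.48 without Pcdhb9 and Pcdhb3, the last 2 chosen after seeing the data. Scaled by the library total alone, the log2 fold change of Pcdhb22 was 0.21, and without Apc1322T replicate 3 that of Pcdhgb8 was -0.66. Of 137 values for named members 132 kept their sign, and the 5 others belonged to Pcdhb22, Pcdhgb6 and Pcdhgc4 with a library left out.

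With each library left out in turn, between 25 and 29 members were higher in ApcMin, and 0 passed an adjusted p of 0.01. The log2 difference then ranged from 0.52 to 0.61 for the beta sum, from -0.11 to 0.20 for the gamma sum and from -0.21 to 0.54 for the alpha sum. With the replicate number as a block, 0 members were called and 29 were higher in ApcMin, and the genes of all kinds at an unadjusted p under 0.05 fell from 2495 to 2113. Without Apc1322T replicate 1, 205 genes had an adjusted p under 0.05, against 1 with all libraries. Depth limits the alpha genes most, whose sum was at most 40 counts in a library.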
